A study of Mus musculus with 12 samples.

Results

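The comparison described here is that of doxorubicin (DOX) against normal saline (NS) in hearts whose cardiomyocytes lack Adam17, A17α-MHCKO + DOX against A17α-MHCKO + NS. Its members were chosen by group alone, as the 3 libraries of each of these 2 groups, which makes 6 of the 12 libraries of the series, and all 53465 genes of the count table entered. The other 6 libraries are A17fl/fl + NS and A17fl/fl + DOX, with 3 each, and are used only where the effect of doxorubicin is set beside that in hearts that keep Adam17. All mice were males on a C57BL/6J background, 8 weeks old at the first injection, and both alleles of Adam17 carried loxP sites in all 4 groups. In A17α-MHCKO mice a Cre recombinase under the α-MHC promoter, which is active in cardiomyocytes, removes exon 2 of Adam17, so that fibroblasts, endothelial cells and blood cells of the same heart keep the gene. The A17fl/fl littermates carry no Cre, and no group with Cre alone was analysed here. Doxorubicin was injected at 5 mg/kg on days 0, 7, 14 and 21, which adds up to 20 mg/kg in 4 injections, and hearts were taken 4 weeks after the last of them. RNA came from the left ventricle, with 1 library from each mouse, and the labels give the tissue as heart.

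Doxorubicin is an anthracycline that poisons DNA topoisomerase II and generates reactive oxygen species, and its use against tumours is limited by damage to heart muscle. ADAM17 is a membrane metalloprotease that sheds the ectodomains of other membrane proteins, among them TNF, TNF receptors, ligands of the EGF receptor and adhesion molecules. The comparison asks which transcripts differ after a course of doxorubicin when cardiomyocytes cannot make the full protease. Levels are given throughout as CPM, each count relative to its library's total, scaled by TMM factors, which correct for differences in library composition. Effects are given as log2 fold changes of DOX over NS with their standard error (SE), where a positive value means a higher level after doxorubicin.

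Total counts of the 6 libraries lay between 15950717 and 21725076, and between 21414 and 22770 genes had at least 1 count. Transcripts of the mitochondrial genome took between 18.5% and 23.2% of the counts. Each of the 6 libraries correlated with the other 5 at a mean r between 0.965 and 0.974. In the fit of all 12 libraries, A17fl/fl + NS replicate 1 stood apart with a mean r of 0.9. Each log2 fold change for A17fl/fl hearts is therefore given with and without it. The lung markers searched did not reach the level for testing in any of the 6 libraries, and cardiomyocyte transcripts led the tissue. Myh6, the α-myosin heavy chain of the adult mouse ventricle, stood at 15313, 13044 and 12107 CPM in the NS and 10981, 14787 and 14628 CPM in the DOX libraries, and the groups overlapped (log2 fold change -0.002, SE 0.19).

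Adam17 was read first, since it is the gene that Cre acts on. Its gene (ENSMUSG00000052593) lies at chr12:21323509-21373632 on GRCm38 in the GENCODE M21 annotation, and the series itself was aligned to GRCm39. The exon that Cre removes is exon 2 of 19, at chr12:21361659-21361791 on the minus strand of GRCm38. It is wholly coding and 133 bases long, and division by a codon of 3 leaves a remainder of 1, so that its loss shifts the reading frame. The exon is shown because the counts cover the whole gene, and a transcript without these bases is still counted.
Adam17 exon 2: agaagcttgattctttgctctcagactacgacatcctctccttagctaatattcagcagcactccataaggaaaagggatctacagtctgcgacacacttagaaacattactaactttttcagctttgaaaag
Adam17 stood at 35.4, 35.2 and 34.5 CPM in the NS and 28, 36.7 and 32.3 CPM in the DOX libraries. The values of the groups overlapped (log2 fold change -0.12, SE 0.13, edgeR adjusted p = 0.754), and the exact permutation test over the 6 mice gave p = 0.4, two-sided, where 0.1 is the smallest p that 3 against 3 can give. All 6 A17α-MHCKO libraries lay below all 6 A17fl/fl libraries, which ranged from 43.6 to 70.9 CPM (two-sided exact permutation p = 0.00216, the smallest the design allows). The highest value was that of the outlying A17fl/fl + NS replicate 1, and without it the range ended at 53.2 CPM. The permutation test was not run without this library. Traf3, an adaptor of TNF receptor family signaling that the study followed up, stood at 19.2, 13.9 and 8.38 CPM in the NS and 13.2, 9.66 and 17.9 CPM in the DOX libraries in A17α-MHCKO hearts. Its groups overlapped (log2 fold change -0.02, SE 0.31), whereas in A17fl/fl hearts its log2 fold change was 1.07 with all 12 libraries and 1.16 without the outlying one. The difference between the genotypes had an unadjusted p of 0.0198 with 12 and 0.0168 with 11 libraries, and an adjusted p of 0.828 and 0.597.

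Doxorubicin left few differences in A17α-MHCKO hearts that passed correction over all genes. Of 15422 genes tested, edgeR's quasi-likelihood test with Benjamini-Hochberg adjustment called 2 at an adjusted p under 0.05 (0.013%), 1 in each direction (0.00648% each). The study's own limits ask for a log2 fold change beyond 1 in either direction, a p before adjustment below 0.05, and an FPKM whose mean exceeds 1 in at least 1 group, and by these 164 genes differed (1.06%), of which 69 were higher (0.447%) and 95 lower (0.616%) after doxorubicin. In the text below, a gene is said to have risen or fallen only if it passed these limits or the adjusted p, and other genes are given by their values. Of the 164 genes, 125 (76.2%) had no overlap between the values of the groups, and 141 were annotated as protein coding. Among all tested genes 17.2% had no overlap (8.91% apart as higher and 8.25% as lower). The 164 genes were selected on these same values, so that their larger share follows from the selection and is no separate evidence for them. At an unadjusted p under 0.05 there were 1667 genes (10.8%), 844 higher (5.47%) and 823 lower (5.34%), and the median log2 fold change of all tested genes was -0.001. The number past correction depended on the test. DESeq2 called 196 genes and edgeR's likelihood ratio test 216, of which 175 were common to both, 80 higher and 95 lower. It also depended on single libraries, with 10 calls without NS replicate 1, 18 without NS replicate 2, 1 without NS replicate 3 and 0 without any one of the DOX libraries.

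**Figure D1:**
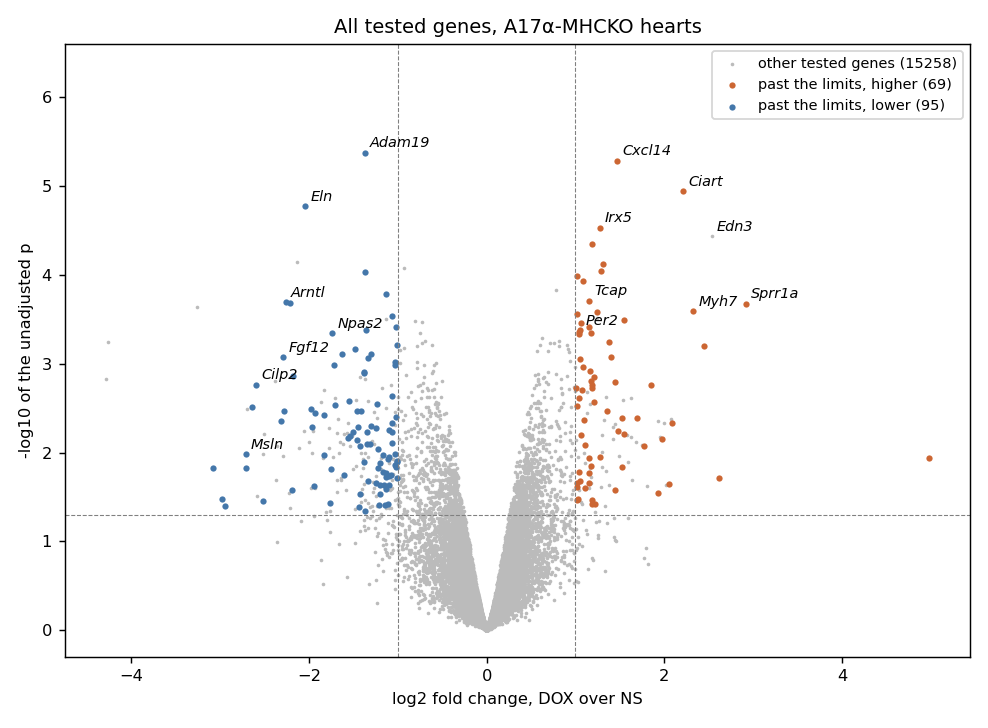
Each point is 1 of the 15422 tested genes in A17α-MHCKO hearts, with the log2 fold change of DOX over NS on the x axis and -log10 of the unadjusted edgeR p on the y axis. Orange points are the 69 genes that rose and blue points the 95 that fell by the study's limits, the dashed lines mark a log2 fold change of 1 in either direction and a p of 0.05, and Adam19 and Cxcl14 lie at the top.

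The genes with the smallest p encoded a protease, a chemokine, a clock repressor and a matrix fibre. Adam19, a metalloprotease of the same family as Adam17, stood at 45.5, 54.5 and 60.0 CPM in the NS and 20.8, 19.7 and 21.2 CPM in the DOX libraries. The DOX libraries were all below the lowest NS library, with a mean ± SD of 53.3 ± 7.28 CPM after saline and 20.6 ± 0.79 CPM after doxorubicin (n = 3 each; log2 fold change -1.37, SE 0.14, edgeR adjusted p = 0.0399). Its gene lies at chr11:46055992-46147343 on GRCm38. Cxcl14, a chemokine of epithelia and stroma, stood at 8.67, 11.5 and 9.09 CPM in the NS and 29, 27 and 25.5 CPM in the DOX libraries, and all DOX libraries were above the highest NS library. The means were 9.76 ± 1.54 and 27.2 ± 1.74 CPM (SD, n = 3 each; log2 fold change 1.47, SE 0.15, edgeR adjusted p = 0.0399), and the gene lies at chr13:56288643-56296551. With all 12 libraries in the fit, the Adam19 log2 fold change had an edgeR adjusted p of 0.666 and the Cxcl14 log2 fold change one of 0.705, and without any one of NS replicate 3 and the DOX libraries both lay between 0.0893 and 0.164. Without NS replicate 1 the Cxcl14 log2 fold change had 0.0596. Ciart, a transcriptional repressor of the circadian clock, rose from 1.3, 1.83 and 1.11 CPM to 7.47, 6.35 and 6.15 CPM (log2 fold change 2.21, SE 0.25, edgeR adjusted p = 0.0585). Eln, which encodes elastin, fell from 174, 297 and 343 CPM to 62.3, 61.7 and 73.9 CPM (log2 fold change -2.04, SE 0.24, edgeR adjusted p = 0.0647). Irx5, an Iroquois factor that shapes the gradient of repolarization across the ventricular wall, rose from 5.45, 5.69 and 6.51 CPM to 13.4, 13.6 and 15.7 CPM (log2 fold change 1.27, SE 0.16). In each of these genes the groups did not overlap. Edn3, an endothelin ligand, stood at 0.867, 0.608 and 1.05 CPM in the NS and 5.82, 5.38 and 3.35 CPM in the DOX libraries (log2 fold change 2.53, SE 0.33, edgeR adjusted p = 0.0944), which was below the FPKM limit.

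**Figure D2:**
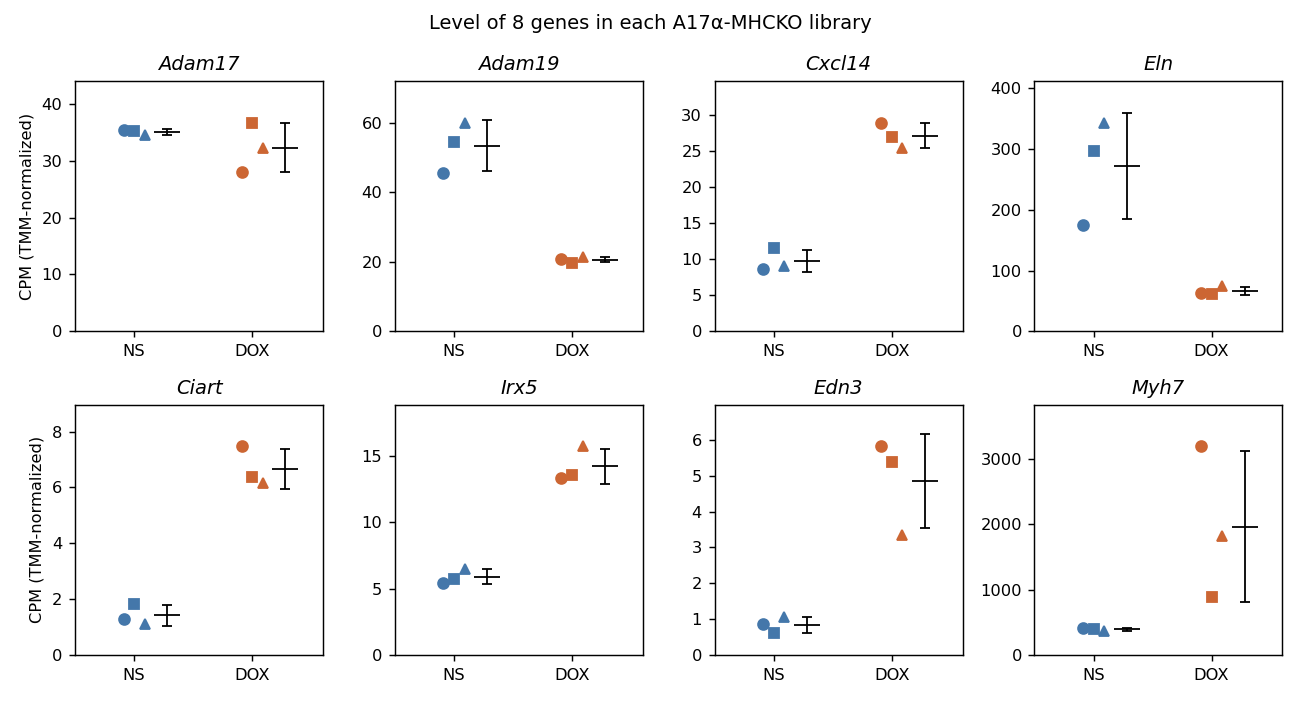
TMM-normalized CPM (y axis, from 0) of 8 genes in each A17α-MHCKO library, with NS in blue, DOX in orange, the symbol shape giving the replicate number and the bar the mean ± SD of 3 libraries. The groups overlap for Adam17 and are apart for the other 7 genes, and for Myh7 the DOX libraries spread from 884 to 3191 CPM.

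Of the genes that rose without overlap between the groups, the 12 with the largest fold change included genes of muscle, microtubules and secreted proteins. Sprr1a, a small proline-rich protein induced in stressed cardiomyocytes, had the largest fold change of these (2.92, SE 0.48) at low levels of 0.062, 0.174 and 0.176 CPM in the NS and 1.14, 1.1 and 1.1 CPM in the DOX libraries. Myh7, the slow β-myosin heavy chain of the fetal ventricle, rose from 417, 391 and 371 CPM to 3191, 884 and 1819 CPM (log2 fold change 2.32, SE 0.39, edgeR adjusted p = 0.172). The 3 NS libraries lay close together and the DOX libraries spread widely above them. Tuba4a, an α-tubulin, rose from 51.8, 184 and 71.3 CPM to 407, 353 and 232 CPM (log2 fold change 1.69), with 1 NS library well above the other 2. Upp1, a uridine phosphorylase, rose from 3.78, 5.35 and 2.93 CPM to 14.6, 8.82 and 12.2 CPM (log2 fold change 1.55, SE 0.27). Ptprn, a membrane protein of secretory granules, had a log2 fold change of 1.86 (SE 0.42), the secretoglobin Scgb1c1 one of 2.45 (SE 0.47) and the noncoding Banf2os one of 1.48 (SE 0.41). Pcdhgb1, a clustered protocadherin, had a log2 fold change of 2.62 that rested on 1 library, with 4.81, 4.73 and 54.1 CPM after doxorubicin, and was 0.46 without DOX replicate 3. Its neighbours in the cluster share exons with it, so that its counts are uncertain. Ciart, Dbp, Ccl11 and Cxcl14 complete the 12 and are described with their lists.

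The 12 genes that fell most without overlap included 2 clock activators, Arntl and Npas2, and several genes of atrium, mesothelium and matrix. Fgf12, an intracellular FGF that binds sodium channels, fell from 10.8, 27.5 and 23.6 CPM to 2.21, 3.18 and 7.24 CPM (log2 fold change -2.29, SE 0.46). Cilp2, a matrix protein known from cartilage, fell from 15.4, 68.8 and 36.5 CPM to 2.4, 9.08 and 8.52 CPM (log2 fold change -2.60, SE 0.58). Sbk3, a kinase of striated muscle, fell from 73.4, 165 and 143 CPM to 11.3, 35 and 51.1 CPM (log2 fold change -1.97). Mybphl, a myosin-binding protein known from the atria, fell from 59.5, 138 and 103 CPM to 7.66, 25.6 and 51.1 CPM (log2 fold change -1.83). The keratin Krt8 (-2.32), Mlana (-2.18), Tm4sf5 (-1.96), Nkain4 (-1.93) and Fam124b (-2.64) had log2 fold changes of similar size at levels under 10 CPM in every library.

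The circadian clock was the pathway list with the most genes past the limits. In every cell of the heart, the activators ARNTL (BMAL1) and CLOCK, or NPAS2 in place of CLOCK, bind E-boxes and switch on the PER and CRY repressors, which then shut the activators off. The output factors DBP, TEF and HLF act through D-boxes, with NFIL3 as their competitor, and REV-ERB and ROR receptors control ARNTL, so that levels of these genes cycle over the day. Sequences before the start sites were searched on both strands for the letters CACGTG (E-box), TTATGTAA (D-box) and TAGGTCA (an element of REV-ERB and ROR) in 250 bases, taken from RefSeq on GRCm38.p6. Promoters were found for 18 of the 24 listed genes. E-box letters stood in 6.02% of all 32851 windows and in those of Bhlhe41, Ciart, Cry1, Per1 and Tef. D-box letters stood in 0.819% of all windows and in that of Per3, and the third set of letters in 2.23% of all windows and in that of Nfil3. The windows of 5 genes with such letters and an unadjusted p under 0.05 in the comparison are shown from 5′ to 3′ along the gene, with the matched letters in capitals. Tef had another window with E-box letters, at chr15:81802423-81802672 and 127 bases before its start, which is not shown. A match describes these letters only and is not a site that was measured.
Ciart, chr3:95882229-95882478, minus strand, 3 E-boxes at 116, 58 and 44 bases before the start: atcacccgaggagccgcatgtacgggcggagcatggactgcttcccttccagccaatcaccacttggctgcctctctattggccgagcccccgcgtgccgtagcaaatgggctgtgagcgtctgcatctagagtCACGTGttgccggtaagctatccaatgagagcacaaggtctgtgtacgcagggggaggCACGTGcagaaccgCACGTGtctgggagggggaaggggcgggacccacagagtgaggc
Bhlhe41, chr6:145865421-145865670, minus strand, an E-box at 153 bases: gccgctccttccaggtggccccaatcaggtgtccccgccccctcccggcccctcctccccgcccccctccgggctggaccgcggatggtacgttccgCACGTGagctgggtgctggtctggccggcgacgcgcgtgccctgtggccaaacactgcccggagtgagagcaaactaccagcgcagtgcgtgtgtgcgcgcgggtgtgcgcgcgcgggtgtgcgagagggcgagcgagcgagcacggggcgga
Tef, chr15:81811164-81811413, plus strand, an E-box at 138 bases: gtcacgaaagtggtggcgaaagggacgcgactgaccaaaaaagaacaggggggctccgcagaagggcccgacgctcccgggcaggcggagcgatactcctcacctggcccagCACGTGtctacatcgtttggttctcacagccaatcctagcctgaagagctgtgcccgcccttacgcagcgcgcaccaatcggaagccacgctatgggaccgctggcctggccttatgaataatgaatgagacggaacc
Per3, chr4:151044666-151044915, minus strand, 2 D-boxes at 205 and 158 bases: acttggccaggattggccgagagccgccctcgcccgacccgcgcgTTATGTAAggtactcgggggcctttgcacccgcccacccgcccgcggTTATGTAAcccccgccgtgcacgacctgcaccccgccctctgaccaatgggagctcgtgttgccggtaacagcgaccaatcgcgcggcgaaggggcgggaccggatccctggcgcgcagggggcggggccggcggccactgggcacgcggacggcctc
Nfil3, chr13:52981040-52981289, minus strand, an element of REV-ERB and ROR at 12 bases, read on the opposite strand: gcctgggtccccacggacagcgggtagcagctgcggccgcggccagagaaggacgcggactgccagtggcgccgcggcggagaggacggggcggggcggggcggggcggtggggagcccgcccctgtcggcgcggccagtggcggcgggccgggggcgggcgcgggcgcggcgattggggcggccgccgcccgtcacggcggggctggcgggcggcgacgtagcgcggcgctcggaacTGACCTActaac

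Of 23 clock genes tested, 5 rose (21.7% of the list, against 0.447% of all tested genes) and 2 fell (8.7%, against 0.616%). At an unadjusted p under 0.05, 10 were higher (43.5%, against 5.47%) and 4 lower (17.4%, against 5.34%). The activators were lower. Arntl, the partner of CLOCK and NPAS2, fell from 23.6, 9.82 and 25.4 CPM to 3.92, 2.98 and 5.3 CPM (log2 fold change -2.26, SE 0.37, edgeR adjusted p = 0.162). Npas2 fell from 10.4, 4.87 and 10.8 CPM to 2.78, 2.27 and 2.74 CPM (log2 fold change -1.73, SE 0.32), and Clock stood at 61.8, 35.2 and 71.9 CPM in the NS and 21.5, 32.4 and 36.6 CPM in the DOX libraries with overlap (log2 fold change -0.90, SE 0.28). Most repressors and output genes were higher. Per2 rose from 13.6, 21.7 and 14.3 CPM to 30.9, 37.3 and 35.2 CPM (log2 fold change 1.06, SE 0.19). Cry2, a partner of the PER repressors, stood at 29.2, 31.4 and 25.7 CPM in the NS and 49.6, 51 and 47.4 CPM in the DOX libraries without overlap (log2 fold change 0.78, SE 0.12, edgeR adjusted p = 0.151), short of the limits. The output factor Dbp rose from 12.9, 108 and 13.4 CPM to 134, 197 and 179.8 CPM (log2 fold change 1.92, SE 0.73, or 3.70 without NS replicate 2). Per3, Bhlhe41, Tef and Nfil3, named for the sequences above after their values were seen, had log2 fold changes of 1.35, 1.21, 0.94 and -0.97, of which the first 2 were past the limits.

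NS replicate 2 lay between the other NS libraries and the DOX libraries in Arntl, Npas2, Dbp, Per2, Per3, Bhlhe41 and Tef. Without it, 7 clock genes were past the limits in the higher and 4 in the lower direction, and without any one of NS replicate 1, NS replicate 3 and DOX replicate 2 there were 3 and 2. The median log2 fold change of the list was 0.404 and ran from 0.248 to 0.624 with single libraries left out. The hour at which each heart was taken is not in the labels, and its part in these values was not tested.

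**Figure D3:**
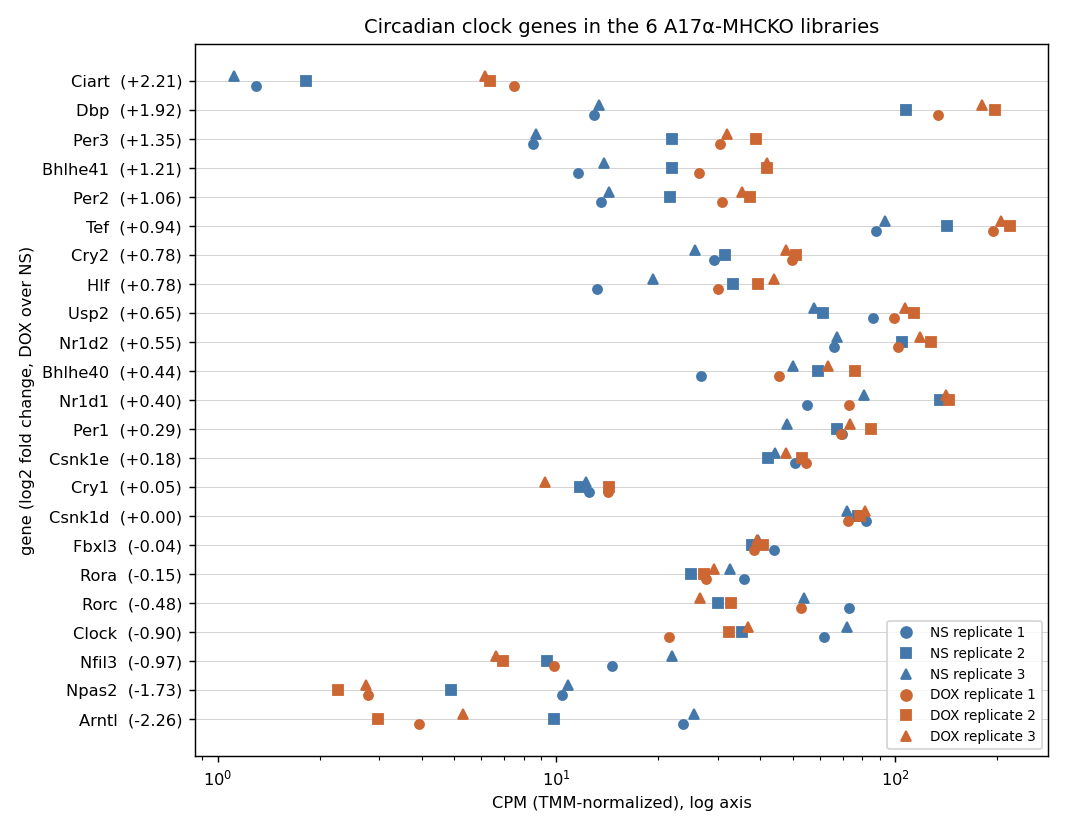
TMM-normalized CPM on a log axis of the 23 tested clock genes in each A17α-MHCKO library, ordered by log2 fold change (in brackets), with NS in blue, DOX in orange and the symbol shape giving the replicate number. Ciart, Dbp and Per3 head the list and Arntl and Npas2 end it, and the square of NS replicate 2 lies between the other 2 NS libraries and the DOX libraries in most genes at either end.

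Genes of the contractile apparatus were mostly higher after doxorubicin. Of 34 sarcomere and Z-disc genes tested, 13 were higher at an unadjusted p under 0.05 (38.2%, against 5.47% of all tested genes) and 0 lower. Past the limits as higher were 2 (5.88%, against 0.447%), Tcap and Myot (Myot was named after its value was seen). Tcap, or telethonin, which caps titin at the Z-disc, rose from 936, 1219.9 and 797 CPM to 2024, 2123 and 2437 CPM (log2 fold change 1.16, SE 0.19, edgeR adjusted p = 0.162). Actc1, cardiac α-actin, stood at 4382, 6057 and 3517 CPM in the NS and 10291, 8982 and 8354 CPM in the DOX libraries (log2 fold change 0.99, SE 0.22). Tnnc1, the calcium-binding troponin C, stood at 1242, 1089 and 846 CPM in the NS and 2164, 1772 and 1739 CPM in the DOX libraries (log2 fold change 0.84, SE 0.18). Pdlim5, a Z-disc adaptor, stood at 276, 229 and 253 CPM in the NS and 443, 394 and 386 CPM in the DOX libraries (log2 fold change 0.69, SE 0.14). In none of these 4 genes did the groups overlap. All 4 lay under an adjusted p of 0.05 in DESeq2 and in the likelihood ratio test, but not in the quasi-likelihood test. Among all 15422 tested genes, 175 were called by both, and genes of other lists, such as Arntl, Eln and Myl7, are among them. The tests used the same counts and are no separate evidence for these genes. The median of the list was 0.326 and ran from 0.223 to 0.453 with single libraries left out.

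The cardiac stress list was split. Of 25 genes, 7 were higher (28%, against 5.47% of all tested genes) and 3 lower (12%, against 5.34%) at an unadjusted p under 0.05, and the median was 0.283, or 0.096 without DOX replicate 3. Past the limits, 3 rose (12%, against 0.447%), among them Myh7 (above) and Acta1. Nppa and Myl4, which are also atrial markers, were the 2 that fell (8%, against 0.616%). Acta1, skeletal α-actin, rose from 393, 115 and 144 CPM to 424, 503 and 394 CPM (log2 fold change 1.02, SE 0.41, or 0.71 without NS replicate 2 and 1.77 without NS replicate 1). Hspb7, a small heat shock protein of heart muscle, stood at 1522, 1068 and 1065 CPM in the NS and 2497, 2291 and 2154 CPM in the DOX libraries without overlap (log2 fold change 0.93, SE 0.18). Ctgf, a matricellular factor, stood at 260.3, 308 and 367 CPM in the NS and 144, 189.9 and 273 CPM in the DOX libraries with overlap (log2 fold change -0.62). Nppa, the atrial natriuretic peptide, which marks stress where ventricles express it, fell from 2619, 4212 and 6075 CPM to 1486, 1307 and 3079 CPM (log2 fold change -1.14, SE 0.39), also with overlap.

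Genes of energy metabolism were higher by small amounts. Of 76 nuclear genes of the respiratory chain tested, 75 had a positive log2 fold change, against 49.8% of all tested genes, with a median of 0.275. At an unadjusted p under 0.05, 12 were higher (15.8%, against 5.47% of all tested genes) and 0 lower, and 0 passed the limits. Cox6a2, the striated muscle form of a cytochrome c oxidase subunit, stood at 824, 725 and 1049 CPM in the NS and 2139, 1339.5 and 1302 CPM in the DOX libraries (log2 fold change 0.88, SE 0.23). Sdhd, a membrane anchor of complex II, stood at 345, 348 and 309.7 CPM in the NS and 613, 455 and 429.9 CPM in the DOX libraries (log2 fold change 0.58, SE 0.17), and Ndufb3 of complex I at 77.9, 74.9 and 73.2 CPM in the NS and 143, 102 and 93.2 CPM in the DOX libraries (log2 fold change 0.58, SE 0.17). The values of DOX replicate 1 were the highest in all 3 genes. Without it the median of the list was 0.0907, and without DOX replicate 3 it was 0.388 with 27 genes at an unadjusted p under 0.05. That count was 4 without NS replicate 3 and 7 without either of DOX replicate 1 and NS replicate 2. The 13 genes of the mitochondrial genome had a median of 0.099, and 0 of them reached an unadjusted p under 0.05.

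Of 36 genes of glucose and glycogen metabolism, 10 were higher (27.8%, against 5.47% of all tested genes) and 0 lower at an unadjusted p under 0.05. The median was 0.207. Slc16a1, which carries lactate and pyruvate, stood at 175, 188 and 182 CPM in the NS and 261, 267 and 264 CPM in the DOX libraries with little spread (log2 fold change 0.54, SE 0.12). The glycolytic enzymes Tpi1, at 368, 464 and 386 CPM in the NS and 712, 611 and 504 CPM in the DOX libraries, and Hk1, at 96.5, 164 and 116 CPM in the NS and 175, 219 and 203 CPM in the DOX libraries, had log2 fold changes of 0.59 (SE 0.17) and 0.67 (SE 0.20). Without DOX replicate 1 the count at an unadjusted p under 0.05 was 3, without NS replicate 3 it was 4 and without DOX replicate 2 it was 5. Of 46 genes of fatty acid and ketone oxidation, 4 were higher (8.7%, against 5.47% of all tested genes) and 0 lower, with a median of 0.233. The median ran from 0.112 without NS replicate 2 to 0.443 without NS replicate 1, and the count at an unadjusted p under 0.05 was 0 without NS replicate 3, 1 without DOX replicate 2, 7 without NS replicate 2 and 19 without NS replicate 1. The 4 genes included Cpt1b, the muscle carnitine palmitoyltransferase that admits fatty acids to mitochondria (log2 fold change 0.37, SE 0.15), its liver form Cpt1a (0.52, SE 0.20) and Acsl1 (0.40, SE 0.16).

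Marker genes of the heart's chambers moved with treatment. Since the libraries come from whole tissue, fewer cells of a type and less RNA per cell cannot be told apart. Of 13 atrial markers tested, all had a negative log2 fold change, with a median of -1.36, and 9 fell (69.2%, against 0.616% of all tested genes). Myl7, the atrial regulatory light chain, fell from 466, 774 and 672 CPM to 125, 185 and 309 CPM (log2 fold change -1.63, SE 0.32). Myl4, the atrial essential light chain, fell from 579, 1138 and 1024 CPM to 138, 241 and 459 CPM (log2 fold change -1.71, SE 0.42). Sln, sarcolipin, which restrains the calcium pump of atrial cells, fell from 213, 367 and 346 CPM to 64.1, 64.8 and 152 CPM (log2 fold change -1.72, SE 0.36). Dkk3 (-1.42), Stard10 (-1.36) and Gja5 (-1.16), the connexin of atrium and conduction system, also fell, and Pam, which amidates peptides in atrial granules, had a log2 fold change of -0.94. The summed level of the 13 markers was 5185, 8716 and 10153 CPM after saline and 2467, 2679 and 5154 CPM after doxorubicin. Bmp10, a factor of the right atrium, was too sparse for the test, with 0, 91 and 5379 counts after saline and 1, 0 and 8 counts after doxorubicin, so that nearly all its counts lay in NS replicate 3. With single libraries left out the median of the list ran from -1.74 to -1.12.

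Ventricular markers moved the other way. Of 7 tested, 5 were higher at an unadjusted p under 0.05 (71.4%, against 5.47% of all tested genes) and 0 lower. Irx5 and Irx3 rose (28.6% of the list, against 0.447%). Myl2, the ventricular regulatory light chain, stood at 2192, 1627 and 1566 CPM in the NS and 4689, 3279.5 and 2428 CPM in the DOX libraries without overlap (log2 fold change 0.95, SE 0.26). Myl3, the ventricular essential light chain, stood at 4424, 3179 and 3465 CPM in the NS and 7015, 5289.7 and 4759 CPM in the DOX libraries (log2 fold change 0.62, SE 0.21). Irx3 rose from 30.0, 20.6 and 25.1 CPM to 48.7, 44.5 and 59.9 CPM (log2 fold change 1.02, SE 0.17). The summed level of the 7 markers was 6845, 4975 and 5225 CPM after saline and 11941, 8760.5 and 7379 CPM after doxorubicin. The median of the list was 0.625 and ran from 0.4465 without DOX replicate 1 to 0.7786 without NS replicate 1. The count at an unadjusted p under 0.05 was 3 without NS replicate 3, 4 without NS replicate 1 and 6 without DOX replicate 1. Over all pan-cardiomyocyte markers tested, 4 of 12 were higher (33.3%, against 5.47%) and 1 lower (8.33%, against 5.34%) at an unadjusted p under 0.05. The 4 higher ones, Actc1, Mybpc3, Tnnc1 and Tnnt2, were already counted as higher in the sarcomere and Z-disc list. So were the ventricular markers Myl2 and Myl3.

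Mesothelium and epicardium, which cover the surface of the heart, followed the atrial markers. All 11 markers tested had a negative log2 fold change, with a median of -2.32, and 7 fell (63.6%, against 0.616% of all tested genes). Msln, mesothelin, fell from 2.04, 17.3 and 16.7 CPM to 0.316, 3.57 and 1.64 CPM (log2 fold change -2.71, SE 0.84), with overlap between the groups. Upk3b fell from 2.23, 37.2 and 23.6 CPM to 0.19, 7.33 and 3.59 CPM (log2 fold change -2.51), and Lrrn4 had a log2 fold change of -3.08. The summed level was 34.5, 135 and 109 CPM after saline and 22.3, 42.8 and 32.9 CPM after doxorubicin, so that NS replicate 1 was close to the DOX libraries. Without NS replicate 2, 3 genes were past the limits and the median was -1.80. How much atrium and surface each piece of tissue held is not in the labels, and its part in the values of the genes given here was not tested.

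**Figure D4:**
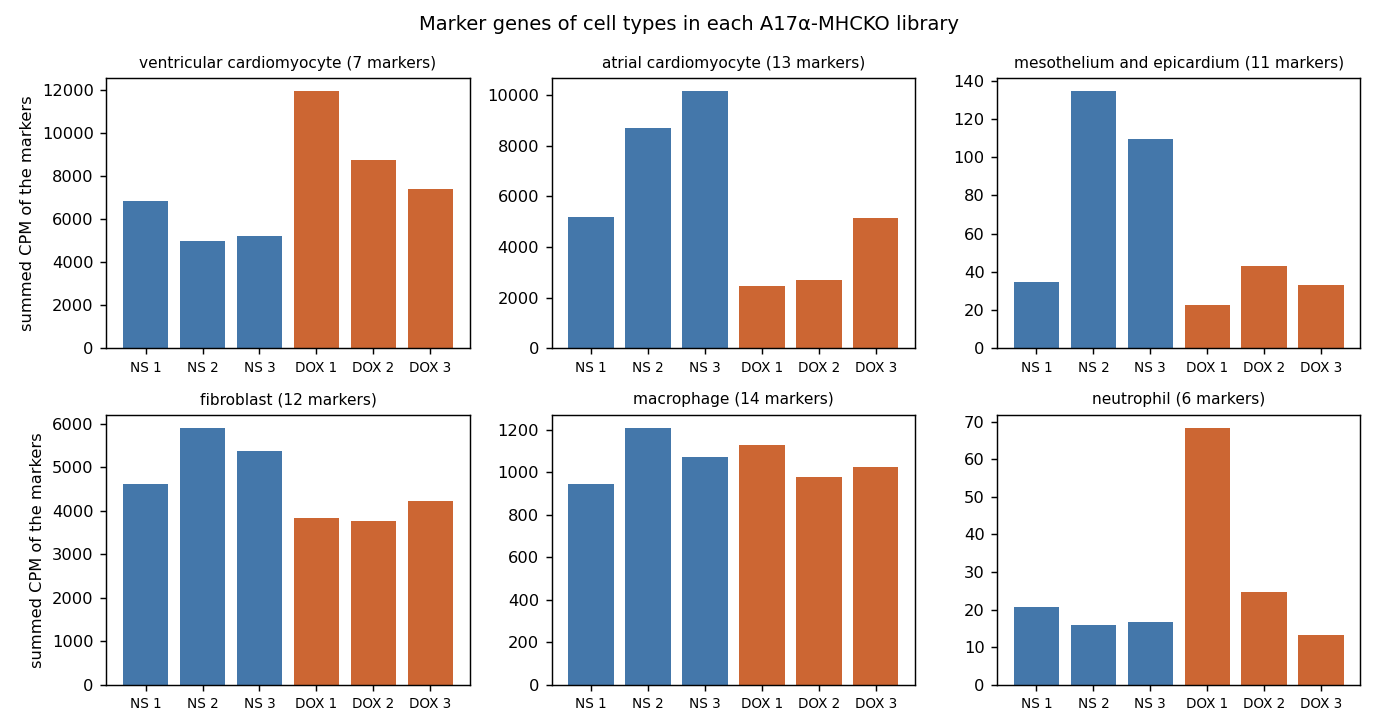
Bars give the summed TMM-normalized CPM (y axis, from 0, with its own scale in each panel) of the tested markers of 6 cell types in each A17α-MHCKO library, NS in blue and DOX in orange. The atrial sums are lower and the ventricular sums higher in all 3 DOX libraries, but the atrial sum of DOX replicate 3 (5154 CPM) nearly equals that of NS replicate 1 (5185 CPM). Mesothelial sums are high in NS replicates 2 and 3, and the neutrophil sum is high in DOX replicate 1 only.

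Genes of the extracellular matrix were lower. Of 50 tested, 16 were lower at an unadjusted p under 0.05 (32%, against 5.34% of all tested genes) and 0 higher. By the limits 3 fell (6%, against 0.616%), Eln, Col3a1 and Mfap4 (the last was named after its value was seen). Eln fell the most (above), and in A17fl/fl hearts its log2 fold change was 0.39 with 12 and 0.41 with 11 libraries. The difference between the genotypes had an edgeR adjusted p of 0.524 and 0.312. Col3a1, a fibrillar collagen, fell from 367, 806 and 453 CPM to 140.4, 347 and 283 CPM (log2 fold change -1.08, SE 0.37, or -0.67 without NS replicate 2), and in A17fl/fl hearts its log2 fold change was -2.04 with 12 and 0.36 with 11 libraries. Fbln1, a fibulin of elastic fibres, stood at 173, 264 and 225 CPM in the NS and 147, 132 and 134 CPM in the DOX libraries without overlap (log2 fold change -0.68, SE 0.17), and Mmp14, a membrane-bound collagenase, at 35.6, 32.4 and 39.4 CPM in the NS and 22.8, 23.7 and 24.6 CPM in the DOX libraries (log2 fold change -0.59, SE 0.12). The 12 fibroblast markers all had a negative log2 fold change, with a median of -0.263. Of these markers, Col1a1, Col3a1, Dcn, Lum, Mfap5 and Postn are also members of the matrix list, so that the lists are not separate readings. At an unadjusted p under 0.05, 4 were lower (33.3%, against 5.34% of all tested genes), among them Col1a1 and Col3a1, which are counted in both lists. Without NS replicate 2 the median was -0.0961 with 1 such gene, and without NS replicate 1 it was -0.395. The summed level of the 12 markers was 4615, 5899 and 5366 CPM after saline and 3837, 3767 and 4233 CPM after doxorubicin. Its part in the matrix genes was not tested. The median of the matrix list was -0.407 and ran from -0.532 without NS replicate 1 to -0.173 without NS replicate 2, and 10 genes were at an unadjusted p under 0.05 in the latter.

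Interferon-stimulated genes were lower in sum in 2 of the 3 treated hearts. Of 59 tested, 3 had a positive log2 fold change, 12 were lower at an unadjusted p under 0.05 (20.3%, against 5.34%) and 0 higher, and 0 passed the limits. Ifit1, which binds viral RNA ends, stood at 41.2, 28 and 31.7 CPM in the NS and 12.8, 15.3 and 26.8 CPM in the DOX libraries (log2 fold change -0.88, SE 0.27). Oas2, a sensor of double-stranded RNA, stood at 24.4, 16.4 and 19.6 CPM in the NS and 9.37, 12.2 and 14.9 CPM in the DOX libraries (log2 fold change -0.73, SE 0.21), and Ifi27 at 105, 82.7 and 123 CPM in the NS and 70.7, 61.3 and 81.7 CPM in the DOX libraries (log2 fold change -0.54, SE 0.18). The groups did not overlap in these 3 genes. The summed level of the list was 2272, 2763 and 2224 CPM after saline and 1357, 1529 and 2901 CPM after doxorubicin, so that DOX replicate 3 was above all NS libraries. Without DOX replicate 3, 41 genes were at an unadjusted p under 0.05 and 13 were past the limits as lower, with a median of -0.71 against -0.352 with all 6 libraries. Without DOX replicate 1 there were 5 genes at an unadjusted p under 0.05 and a median of -0.165, without DOX replicate 2 there were 3 and -0.251, and without NS replicate 1 and NS replicate 3 there were 6 and 8 genes. Antigen presentation genes followed the same library, with sums of 3484, 4992 and 3369 CPM after saline and 2831, 2879.7 and 5004 CPM after doxorubicin. At an unadjusted p under 0.05, 1 of 26 was lower (3.85%, against 5.34%). In A17fl/fl hearts, which share no library with this comparison, the medians of the 2 lists were 0.405 and 0.776 with 12 libraries and 0.62 and 0.941 with 11.

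Several chemokines were higher at low levels. Of 47 genes for chemokines, cytokines and their receptors tested, 8 were higher (17%, against 5.47% of all tested genes) and 3 lower (6.38%, against 5.34%) at an unadjusted p under 0.05, and 5 rose, against 0.447% of all tested genes, and 0 fell. Cxcl14 is described above. Ccl11, eotaxin, which attracts eosinophils, rose from 1.24, 2 and 0.528 CPM to 4.43, 2.72 and 4.08 CPM (log2 fold change 1.54, SE 0.43). The other 3 that rose were the monocyte chemokines Ccl7, Ccl8 and Ccl12, named after their values were seen, at no more than 18.4 CPM in any library. The receptor Il6ra, which ADAM17 can shed, stood at 20.2, 15.3 and 21.1 CPM in the NS and 13, 13.8 and 13.7 CPM in the DOX libraries (log2 fold change -0.48, SE 0.16), and Csf1r, the receptor that sustains macrophages, at 92.1, 109.7 and 109 CPM in the NS and 80.6, 77.8 and 85.5 CPM in the DOX libraries (log2 fold change -0.35, SE 0.12). Macrophage markers summed to 945, 1208 and 1070.0 CPM after saline and 1127, 978 and 1024 CPM after doxorubicin.

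TNF signaling, the pathway the study took up from its A17fl/fl libraries, held few differences. Of 99 genes tested, 5 were higher (5.05%, against 5.47% of all tested genes) and 3 lower (3.03%, against 5.34%) at an unadjusted p under 0.05. Neither share was above that of all genes. By the limits 1 rose (1.01%, against 0.447%), Ccl12. Junb, a subunit of the AP-1 factor, stood at 22.9, 26.6 and 34.9 CPM in the NS and 37.4, 42.1 and 46 CPM in the DOX libraries (log2 fold change 0.57, SE 0.17), and Cxcl1 at 0.372, 0.913 and 1.17 CPM in the NS and 3.48, 1.88 and 1.64 CPM in the DOX libraries (log2 fold change 1.49, SE 0.46). Mapk10, a JNK kinase, stood at 20.1, 27.9 and 23.2 CPM in the NS and 11.1, 16.1 and 17.6 CPM in the DOX libraries (log2 fold change -0.67, SE 0.20). Tnf itself was too sparse for the test, with 5, 4 and 3 counts after saline and 1, 10 and 7 counts after doxorubicin. The complement list held 1 gene higher (3.7%, against 5.47%) and 3 lower (11.1%, against 5.34%) of 27 at an unadjusted p under 0.05. C2, a protease of the classical pathway, fell (log2 fold change -1.24, SE 0.34).

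Blood cell markers differed between single libraries. Neutrophil markers summed to 20.8, 15.8 and 16.7 CPM after saline and 68.3, 24.7 and 13.3 CPM after doxorubicin, and S100a8, a calcium-binding protein of neutrophils, stood at 5.89, 3.91 and 4.04 CPM in the NS and 23.7, 6.22 and 2.86 CPM in the DOX libraries. The immunoglobulin chain Ighg2c had 2.34, 2.2 and 14.6 CPM after doxorubicin, and its call as risen (log2 fold change 2.05) rested on DOX replicate 3, without which it was 0.57. Hba-a1, an α-globin chain, stood at 323, 345 and 319 CPM in the NS and 489, 524 and 466 CPM in the DOX libraries without overlap (log2 fold change 0.58, SE 0.13). Of 6 red cell markers, 3 were higher at an unadjusted p under 0.05 (50%, against 5.47% of all tested genes).

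Lists for the known actions of doxorubicin showed small differences 4 weeks after the last injection. Of 37 p53 targets tested, 2 were higher (5.41%, against 5.47% of all tested genes) and 3 lower (8.11%, against 5.34%) at an unadjusted p under 0.05. Cdkn1a, the p21 inhibitor of the cell cycle, fell by the limits from 211, 37.7 and 128 CPM to 66.7, 42.7 and 53.6 CPM with overlap (log2 fold change -1.21, SE 0.50, or -0.60 without NS replicate 1), and 1 NS library was below all 3 DOX libraries. Ccng1, another p53 target, stood at 576, 709 and 480.1 CPM in the NS and 853, 841 and 705 CPM in the DOX libraries (log2 fold change 0.44, SE 0.18), and Bbc3, the death factor PUMA, at 9.54, 7.43 and 12.6 CPM in the NS and 5.32, 6.61 and 6.39 CPM in the DOX libraries (log2 fold change -0.69, SE 0.22). Of 65 genes of oxidative stress, 6 were higher (9.23%) and 2 lower (3.08%). Gpx3, the glutathione peroxidase of plasma, fell from 628, 299.6 and 426 CPM to 224, 125 and 173 CPM (log2 fold change -1.38, SE 0.29). Nqo1, a quinone reductase, stood at 26.9, 28.8 and 30.4 CPM in the NS and 53.3, 37.9 and 45.3 CPM in the DOX libraries without overlap (log2 fold change 0.66, SE 0.15), and Prdx6, a peroxiredoxin, at 114, 99.6 and 95.8 CPM in the NS and 139, 139 and 139 CPM in the DOX libraries (log2 fold change 0.43, SE 0.12).

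At an unadjusted p under 0.05, 5.47% of all tested genes were higher and 5.34% lower, and the shares in this paragraph stand beside these. Of 31 genes of topoisomerases and anthracycline handling, 1 was higher (3.23%), Nqo1. In the same list 2 were lower (6.45%), the exporters Abcc3 (-0.80, SE 0.25) and Abcb1a (-0.30, SE 0.12). Of 35 genes of iron and ferroptosis, 4 were higher (11.4%) and 2 lower (5.71%), and Hamp, the iron hormone hepcidin, fell (log2 fold change -2.98) with 0.248, 2.13 and 13.6 CPM after saline, most of it in NS replicate 3, without which the log2 fold change was -0.89. Alas1, which starts heme synthesis, stood at 85.6, 133 and 85 CPM in the NS and 175, 208 and 164 CPM in the DOX libraries (log2 fold change 0.85, SE 0.20). Of 54 cell death genes, 1 was higher (1.85%) and 2 lower (3.7%). The death factor Bmf stood at 11.6, 11 and 16.1 CPM in the NS and 7.47, 8.75 and 7.61 CPM in the DOX libraries (log2 fold change -0.70, SE 0.19). The list of unfolded protein, heat shock and integrated stress responses held 4 higher (7.84%) and 2 lower (3.92%) of 51. Hspb6, a small heat shock protein, had a log2 fold change of 0.84 (SE 0.19). Hsf1, the factor that drives heat shock genes, had one of -0.65 (SE 0.16). Cell cycle and replication held 1 higher (1.72%) and 1 lower (1.72%) of 58. Immediate-early genes held 3 higher (8.57%) and 2 lower (5.71%) of 35, and autophagy and mitophagy 2 higher (4.17%) and 2 lower (4.17%) of 48.

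Within the ADAM family and its substrates, 30 of 35 listed genes were tested, of which 6 were lower (20%, against 5.34% of all tested genes) and 2 higher (6.67%, against 5.47%) at an unadjusted p under 0.05, and Adam19 fell. Notch2, a receptor that ADAM proteases cleave, stood at 35.7, 43.5 and 44 CPM in the NS and 21.5, 30.5 and 29.3 CPM in the DOX libraries without overlap (log2 fold change -0.60, SE 0.16), and Erbb3, a receptor for neuregulin, at 13.9, 14.3 and 11.8 CPM in the NS and 16.5, 17.2 and 18.1 CPM in the DOX libraries (log2 fold change 0.37, SE 0.14). In the list of renin-angiotensin, endothelin and adrenergic genes, 1 of 33 was higher (3.03%, against 5.47%), Edn3, at an unadjusted p under 0.05. At the same limit 2 were lower (6.06%, against 5.34%). Ednrb, the receptor that binds endothelin-3, stood at 20.8, 24.8 and 23.6 CPM in the NS and 14, 14.1 and 11.5 CPM in the DOX libraries without overlap (log2 fold change -0.81, SE 0.14, edgeR adjusted p = 0.172). Of 41 genes of calcium handling and ion channels, 8 were lower (19.5%, against 5.34%) and 1 higher (2.44%, against 5.47%), and the 2 that fell, Sln and Gja5, are atrial markers. Kcnj3, a potassium channel of atrial cells and also an atrial marker, stood at 27, 37.2 and 37.8 CPM in the NS and 13.3, 22.7 and 22 CPM in the DOX libraries (log2 fold change -0.82, SE 0.22). Hcn2, a pacemaker channel, stood at 45.3, 50.8 and 42.6 CPM in the NS and 27.9, 36.4 and 23.2 CPM in the DOX libraries without overlap (log2 fold change -0.67, SE 0.17). Slc8a1, the sodium-calcium exchanger, was the gene that was higher, at 106, 95.9 and 102 CPM in the NS and 113, 148 and 146 CPM in the DOX libraries (log2 fold change 0.42, SE 0.14).

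The effect of doxorubicin was then set beside that in A17fl/fl hearts, with which the 6 libraries share no sample. Of the 164 genes past the limits, 105 (64%) had the same sign in A17fl/fl hearts with 12 libraries, against 54.6% of all genes, and 117 (71.3%, against 58.3%) without the outlying library. By the same limits, 13 were called in the same direction in both genotypes. They are 7.93% of the 164 genes here, against 2.82% of all tested genes called in A17fl/fl hearts in either direction. They are 2.86% of the 454 genes called in A17fl/fl hearts, against 1.06% of all tested genes called here in either direction. Without the outlying library 12 were called in the same direction in both. These are 7.32% of the 164 genes, against 1.24% called in A17fl/fl hearts, and 5.88% of 204, against 1.06% called here. The difference between the genotypes was tested as an interaction. With 12 libraries, 0 of 16101 genes passed an adjusted p under 0.05 in edgeR (the smallest was 0.524) and 965 had an unadjusted p under 0.05 (5.99%), while DESeq2 called 21. With 11 libraries, 0 of 16406 passed (the smallest was 0.0948) and 1169 had an unadjusted p under 0.05 (7.13%). No gene named here is therefore shown to respond differently in the 2 genotypes by the adjusted p of the quasi-likelihood test.

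For the leading genes the values of both genotypes were as follows. Adam19 had a log2 fold change of -1.37 in A17α-MHCKO hearts, and in A17fl/fl hearts of -0.69 with 12 and 0.04 with 11 libraries (edgeR adjusted p = 0.844 and 0.254 for the interaction). Cxcl14 had 1.47, and in A17fl/fl hearts -1.54 and -0.65 (edgeR adjusted p = 0.815 and 0.437 for the interaction). Myh7 had 2.32, and in A17fl/fl hearts 0.77 and 0.41 (edgeR adjusted p = 0.84 and 0.597 for the interaction). Arntl had -2.26, and in A17fl/fl hearts -0.98 and -0.20, while Ciart had 2.21, and 0.53 and 0.23. The median of the clock list was 0.003 with 12 and -0.204 with 11 libraries in A17fl/fl hearts, and that of the sarcomere list 0.336 and 0.179. The atrial markers had a median of -0.163 and -0.743 there, and the mesothelial markers of -1.04 and -1.38.

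**Figure D5:**
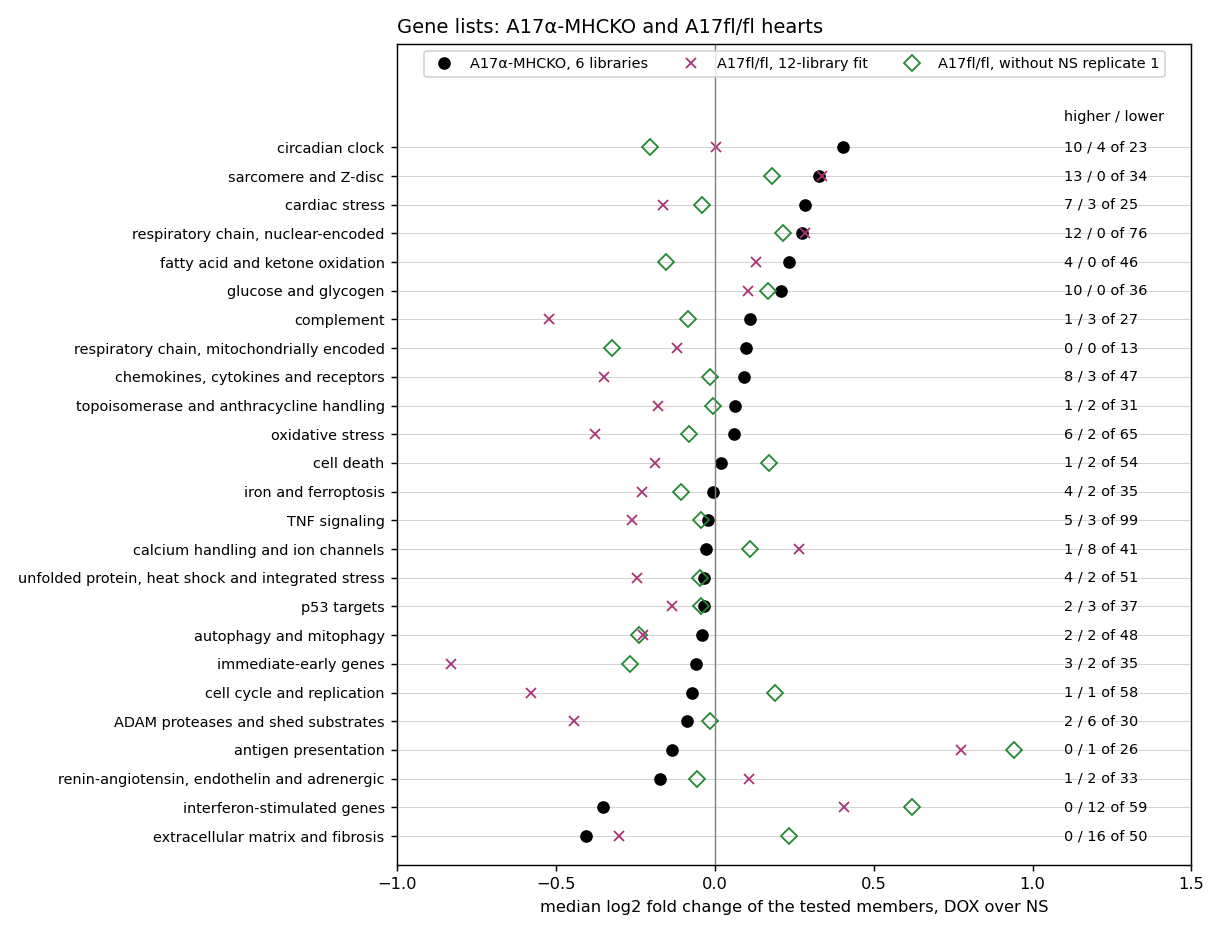
Median log2 fold change of DOX over NS (x axis) of the tested genes of 25 pathway lists (y axis), for A17α-MHCKO hearts as black circles and for A17fl/fl hearts as crosses (12 libraries) and open diamonds (11 libraries), with the numbers at the right giving the genes higher and lower at an unadjusted p under 0.05 in A17α-MHCKO hearts. The circadian clock, sarcomere and cardiac stress lists have the highest medians and the extracellular matrix and interferon lists the lowest. The interferon and antigen presentation lists lie on opposite sides of 0 in the 2 genotypes in both A17fl/fl fits. So do those of cardiac stress, oxidative stress, topoisomerases and anthracycline handling, calcium handling, the mitochondrial genome, chemokines and complement.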

How the data were processed

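RNA of mouse left ventricles was extracted with a column kit and made into stranded paired-end mRNA libraries. Per the submitters' processing notes, CASAVA 1.8, HISAT2, SAMtools 1.3.1 and edgeR were used with build GRCm39. The deposited values are fragment counts per gene, which the authors made with StringTie, and FPKM, which the authors scaled by gene length and depth. Both were used as deposited, the counts for all tests and the FPKM for the expression limit alone. No row was without a name.

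Genes were kept by filterByExpr, scaled by TMM factors and tested in the 6 A17α-MHCKO libraries with edgeR's quasi-likelihood test (edgeR 4.0.16, limma 3.58.1, R 4.3.3) with Benjamini-Hochberg adjustment, without a replicate block. The difference between genotypes was an interaction term over 12 libraries, and over 11 without A17fl/fl + NS replicate 1. DESeq2 1.42.0 was an alternative. Samples were grouped by the labels, each library is 1 mouse, and total counts per library set the counting precision.

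The members and gene lists were chosen with earlier results of these data known. Named were Adam17 and Traf3, the 12 largest fold changes in each direction among genes past the study's limits without overlap and not predicted models, up to 3 per direction with the smallest unadjusted p in each pathway list, all genes past the adjusted p, and for each marker list the 3 most abundant markers and those past the limits; the text names a part of these, and says where others were chosen after their values were seen. The rule also names 1 gene that is not reported here. The alternatives were other normalizations, filters, tests and sets of libraries. Normalization of the list medians was varied only after seeing the data. Coordinates and sequences are from GENCODE M21 and RefSeq on GRCm38, matched by gene ID and symbol, since the deposited table holds no coordinates.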

Additional observations from a re-analysis of the deposited data

Results flagged for a closer look

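In 4 of the genes reported here, the 3 treated libraries lay on one side of the 3 saline libraries in A17α-MHCKO hearts and on the opposite side in A17fl/fl hearts. Only genes named in this text were searched, and the share over all tested genes was not counted. Many were named because their groups did not overlap in A17α-MHCKO hearts, where 17.2% of all tested genes had no overlap. The pattern is therefore no separate evidence of a difference between the genotypes. None of the 4 passed an adjusted p under 0.05 for the difference between the genotypes with 12 or with 11 libraries in edgeR. The difference of the log2 fold changes, A17α-MHCKO minus A17fl/fl, was 3.15 for Ccl11 (edgeR adjusted p = 0.815), and 2.49 with 11 libraries, without A17fl/fl + NS replicate 1 (0.463). For Junb it was 2.55 (edgeR adjusted p = 0.828), and 0.767 with 11 libraries (0.517), with 373 CPM in that library against 43.9 and 45.1 CPM in the other saline libraries of A17fl/fl hearts. For Hcn2 it was -1.36 (edgeR adjusted p = 0.815), and -1.15 with 11 libraries (0.437). For Pcdhgb1 it was 3.28 (edgeR adjusted p = 0.828), and 3.22 with 11 libraries (0.649), with 1 A17α-MHCKO + DOX library far above the rest. In A17fl/fl hearts its groups were barely apart, with 3.27 CPM in the highest DOX and 3.29 CPM in the lowest NS library.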

How the results depend on the processing

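The count past the adjusted p was 2. It was 196 in DESeq2, 216 in the likelihood ratio test, 4 in limma voom with a weight for each library, 5 without a filter, 0 with all 12 libraries, 1 with 11 libraries, and 0 to 18 with single libraries left out. The count past the study's limits was 164, and 106 with all 12 libraries, 302 with a CPM limit in place of the FPKM limit, and 126 to 233 with single libraries left out, the highest without NS replicate 1. The interaction count was 0, 21 in DESeq2, and 0 to 81 with single libraries left out, the highest without A17fl/fl + NS replicate 2. With the replicate block, 0 genes passed the adjusted p, 167 the limits and 0 the interaction. Same-numbered libraries had deviations that correlated at 0.105, 0.053 and 0.023, and those of differently numbered libraries correlated at -0.123 to 0.088. The labels name no pairs, and the numbers were not taken as pairs. With single libraries left out, the Adam19 log2 fold change had an edgeR adjusted p between 0.0349 and 0.164 and the Cxcl14 log2 fold change between 0.021 and 0.164, and with the replicate block both had 0.056. Adam17 ran from -0.215 to -0.022 on the log2 scale with single libraries left out. List medians changed by little with RLE or upper-quartile factors, which were added after seeing the data.

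The sign turned in 3 of the genes named. Traf3 had a log2 fold change of 0.127 in limma voom and -0.281 to 0.284 with single libraries left out. Myh6 had 0.013 with upper-quartile factors, 0.101 in limma voom, 0.004 with all 12 and 0.0031 with 11 libraries, and -0.075 to 0.126 with single libraries left out. S100a8, at 1.25 with all 6 libraries, had -0.0196 without DOX replicate 1 and up to 1.70 without DOX replicate 3. The causes were not tested. With 3 mice a group, differences close to the spread between mice could not be detected.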

Other observations

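The genes below were chosen after their values were seen. Beside Tuba4a, the β-tubulin Tubb4b stood at 85.6, 131 and 111 CPM in the NS and 264, 223 and 195 CPM in the DOX libraries (log2 fold change 1.06, SE 0.19), and the α-tubulin Tuba8 at 68.8, 102 and 83.5 CPM in the NS and 217, 209.7 and 141 CPM in the DOX libraries (log2 fold change 1.16, SE 0.21). Fgf16, a growth factor of the heart, stood at 8.43, 10.2 and 7.74 CPM in the NS and 20.9, 17.9 and 21.2 CPM in the DOX libraries (log2 fold change 1.18, SE 0.16, edgeR adjusted p = 0.0996). Cacna1s, the calcium channel of skeletal muscle, stood at 6.75, 4.65 and 5.45 CPM in the NS and 15, 14.1 and 12.1 CPM in the DOX libraries (log2 fold change 1.29, SE 0.19). Tnfrsf12a, the receptor of TWEAK, stood at 27.2, 33.4 and 32.1 CPM in the NS and 99.8, 65.4 and 65.6 CPM in the DOX libraries (log2 fold change 1.31, SE 0.19). The lipid synthesis enzymes Fasn, at 31.8, 212 and 125 CPM in the NS and 34.7, 60.8 and 42.1 CPM in the DOX libraries, and Scd1, at 33.3, 256 and 91.4 CPM in the NS and 43, 61.4 and 43.4 CPM in the DOX libraries, had log2 fold changes of -1.42 (SE 0.55) and -1.37 (SE 0.59), with overlap between the groups and NS replicate 1 below all DOX libraries. Without NS replicate 2 these were -0.77 and -0.34.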
